A study of Homo sapiens with 2 samples.

Results

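The keratin gene clusters were examined as every ZMYND8 summit in 2 hg19 spans. The type II span runs from 52560000 to 53350000 of chromosome 12 and also holds KRT18, a type I gene beside KRT8. The type I span runs from 38800000 to 39790000 of chromosome 17. The spans cover 1780 kb and held 46 of the 45924 summits of the parental list and 0 of the 385 summits of the ZMYND8 knockout list. A summit is the base at which a ChIP-seq peak is highest, and each carries the authors' score, a −log10 p or q value.

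The libraries came from mammospheres, floating spheres grown in MammoCult medium, of MDA-MB-231, an established line from a triple-negative breast cancer. One library was from wildtype (parental) spheres and the other from ZMYND8 knockout spheres, and both used the same antibody against ZMYND8, a chromatin reader protein. How the knockout was made, and whether it is a single clone, is not stated in the labels. Nor is read depth. With a single library of each genotype no difference has a replicate check, and all intervals are 95% exact intervals for counting error only. Summit lists hold no transcript levels, so neither the loss of ZMYND8 nor the keratin make-up of the cells could be checked.

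Keratins are the intermediate filament proteins of epithelial cells. Each filament pairs a type I with a type II keratin, and the genes of each type lie side by side in a cluster. KRT8 and KRT18, with KRT7 and KRT19, are keratins of simple (single-layered) epithelia, including luminal breast cells. KRT20 is a simple keratin of gut and urothelium. KRT5 with KRT14 and KRT15 mark the basal layer of stratified epithelia and the basal cells of the breast, and KRT6, KRT16 and KRT17 are induced in wounds. The hair keratins build the hard shaft of hair and nail.

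The spans were divided into 30 windows at 10 kb steps, named for the keratin genes they hold. Window edges came from general knowledge of the hg19 map and were not checked against an hg19 annotation, so a summit near an edge can belong to the neighbouring gene. The 30 windows hold 55 keratin genes, the keratin-associated protein genes (KRTAP), and the start of SMARCE1, a chromatin remodelling gene at the edge of the type I span. Distances below are from the start of each span.

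Sequences at the summits were not read, since no hg19 genome was used here. The start regions of 4 genes from RefSeq are shown as examples of the promoters within the windows. SMARCE1 lies in a window with 3 summits, KRT31 is a hair keratin in a window with 4, and KRT20 (simple) and KRT5 (basal) lie in windows with 0. Each is the 250 bases before the RefSeq start, 5′ to 3′ on the gene's strand, with CpG pairs and the motif TATAAA in capitals. Their GRCh38.p14 positions cannot be set against the hg19 summits.
SMARCE1 (GRCh38.p14 chr17:40647819-40648068, minus strand): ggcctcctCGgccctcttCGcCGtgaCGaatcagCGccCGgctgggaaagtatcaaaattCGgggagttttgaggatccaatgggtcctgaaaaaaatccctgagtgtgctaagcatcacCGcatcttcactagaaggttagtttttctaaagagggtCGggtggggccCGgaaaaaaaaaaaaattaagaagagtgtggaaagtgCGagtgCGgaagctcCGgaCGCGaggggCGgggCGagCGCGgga
KRT20 (GRCh38.p14 chr17:40885243-40885492, minus strand): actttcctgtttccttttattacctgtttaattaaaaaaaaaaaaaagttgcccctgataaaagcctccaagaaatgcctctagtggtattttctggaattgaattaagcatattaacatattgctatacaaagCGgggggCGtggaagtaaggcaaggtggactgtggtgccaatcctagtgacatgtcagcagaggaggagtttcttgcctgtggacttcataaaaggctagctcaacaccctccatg
KRT5 (GRCh38.p14 chr12:52520395-52520644, minus strand): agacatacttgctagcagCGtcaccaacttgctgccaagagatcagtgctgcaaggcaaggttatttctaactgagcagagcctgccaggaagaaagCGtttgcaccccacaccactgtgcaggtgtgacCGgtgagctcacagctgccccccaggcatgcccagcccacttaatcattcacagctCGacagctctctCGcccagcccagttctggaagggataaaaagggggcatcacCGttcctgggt
KRT31 (GRCh38.p14 chr17:41397609-41397858, minus strand): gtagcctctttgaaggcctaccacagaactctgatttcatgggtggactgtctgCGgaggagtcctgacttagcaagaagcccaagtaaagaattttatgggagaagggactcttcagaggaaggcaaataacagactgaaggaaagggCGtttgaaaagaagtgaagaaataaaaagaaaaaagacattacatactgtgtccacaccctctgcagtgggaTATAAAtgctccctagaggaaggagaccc
The stretch before SMARCE1 held 19 CpG pairs, that before KRT5 held 6, and those before KRT20 and KRT31 held 2 each. TATAAA stood 29 bases before the start of KRT31 and was not found in the other 3 stretches.

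Parental summits were unevenly spread over the spans. The type II span held 30 summits (exact Poisson interval 20.2 to 42.8), or 38.0 per Mb. The type I span held 16 (9.15 to 26.0), or 16.2 per Mb. The type II span was 2.35 times denser (1.24 to 4.62). This interval, like the density intervals below, takes summits as independent, although many lie close together. Chromosomes 1 to 22 and X together held 15.1 summits per Mb of full length, assembly gaps included.

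Against its surroundings, the type I span was sparse and the type II span was not. In the 990 kb before the type I span there were 84.8 summits per Mb, and in the 990 kb after it 58.6. The span had 0.190 times the density of the first (0.104 to 0.328) and 0.276 times that of the second (0.148 to 0.486). It also lay below chromosome 17 as a whole, at 35.4 per Mb (ratio 0.456, 0.260 to 0.742). The type II span had 1.43 times the density of the 790 kb before it (0.791 to 2.63) and 1.15 times that of the 790 kb after it (0.660 to 2.03), both intervals including 1. It lay above chromosome 12 as a whole, at 14.4 per Mb (ratio 2.64, 1.78 to 3.79).

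**Figure D1:**
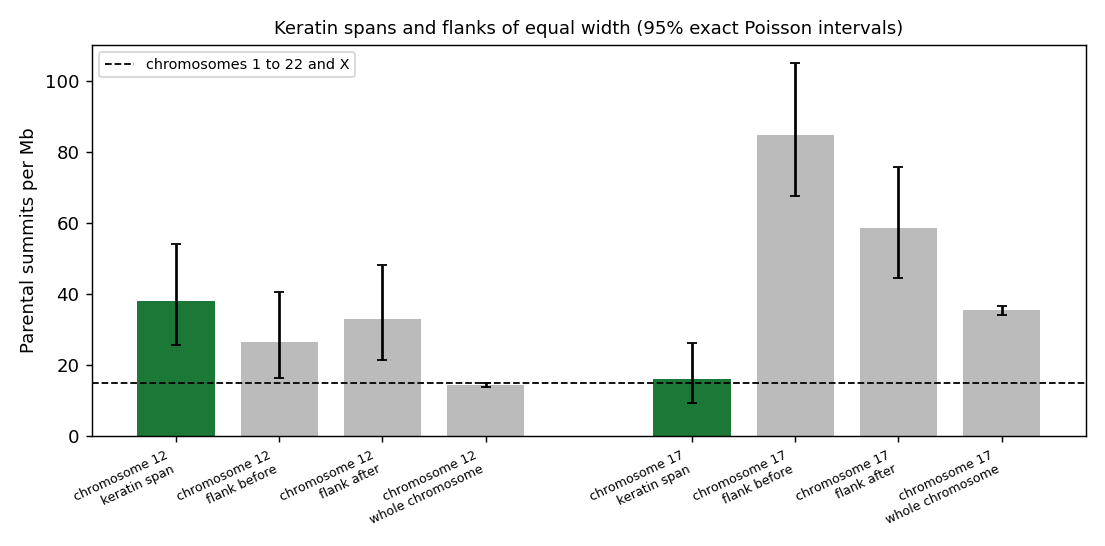
Parental summits per Mb (vertical axis) in each keratin span, in flanks of equal width and in the whole chromosome, with 95% exact Poisson intervals; the dashed line is chromosomes 1 to 22 and X. The type I span (16.2 per Mb) sits below both of its flanks, while the type II span (38.0 per Mb) overlaps both of its own.

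In bins of 10 kb, 23 of 178 keratin bins (12.9%, exact binomial interval 8.37 to 18.8) held a parental summit, against 8.51% of all bins of chromosomes 1 to 22 and X. By span it was 13 of 79 bins (16.5%, 9.06 to 26.5) for type II, against 8.07% on chromosome 12. For type I it was 10 of 99 (10.1%, 4.95 to 17.8), against 17.5% on chromosome 17. The type I interval includes the chromosome 17 share, and the intervals of the type I and type II spans overlap. That of both spans together includes 8.51%. The whole-chromosome shares include assembly gaps, where no summit can lie.

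Most type II summits lay at the end of the cluster that holds KRT80, KRT7 and the hair genes KRT81, KRT86 and KRT83. The first 170 kb, drawn after the summits had been seen, held 24 of the 30 summits, or 141.2 per Mb. The other 620 kb held 6, or 9.68 per Mb. Between the last summit of the KRT81 to KRT83 window and the first of the KRT8 window lay 617.1 kb with 2 summits. In the type I span, 731.1 kb between the last summit of the SMARCE1 window and the first of the KRT33A to KRT36 window held 2 summits. The last 290 kb held 11, or 37.9 per Mb, a value given without an interval. Chromosome 17 as a whole held 35.4 per Mb and the 990 kb after the span 58.6. Of 16 whole 100 kb tiles in the spans 8 (50%) held no summit, against 61.3% of all tiles. The fullest of the 16, the first tile of the type II span, held 18. Of the 30353 tiles of chromosomes 1 to 22 and X, assembly gaps included, 1.04% reached that number. This is a share of single tiles, not of the fullest among 16.

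**Figure D2:**
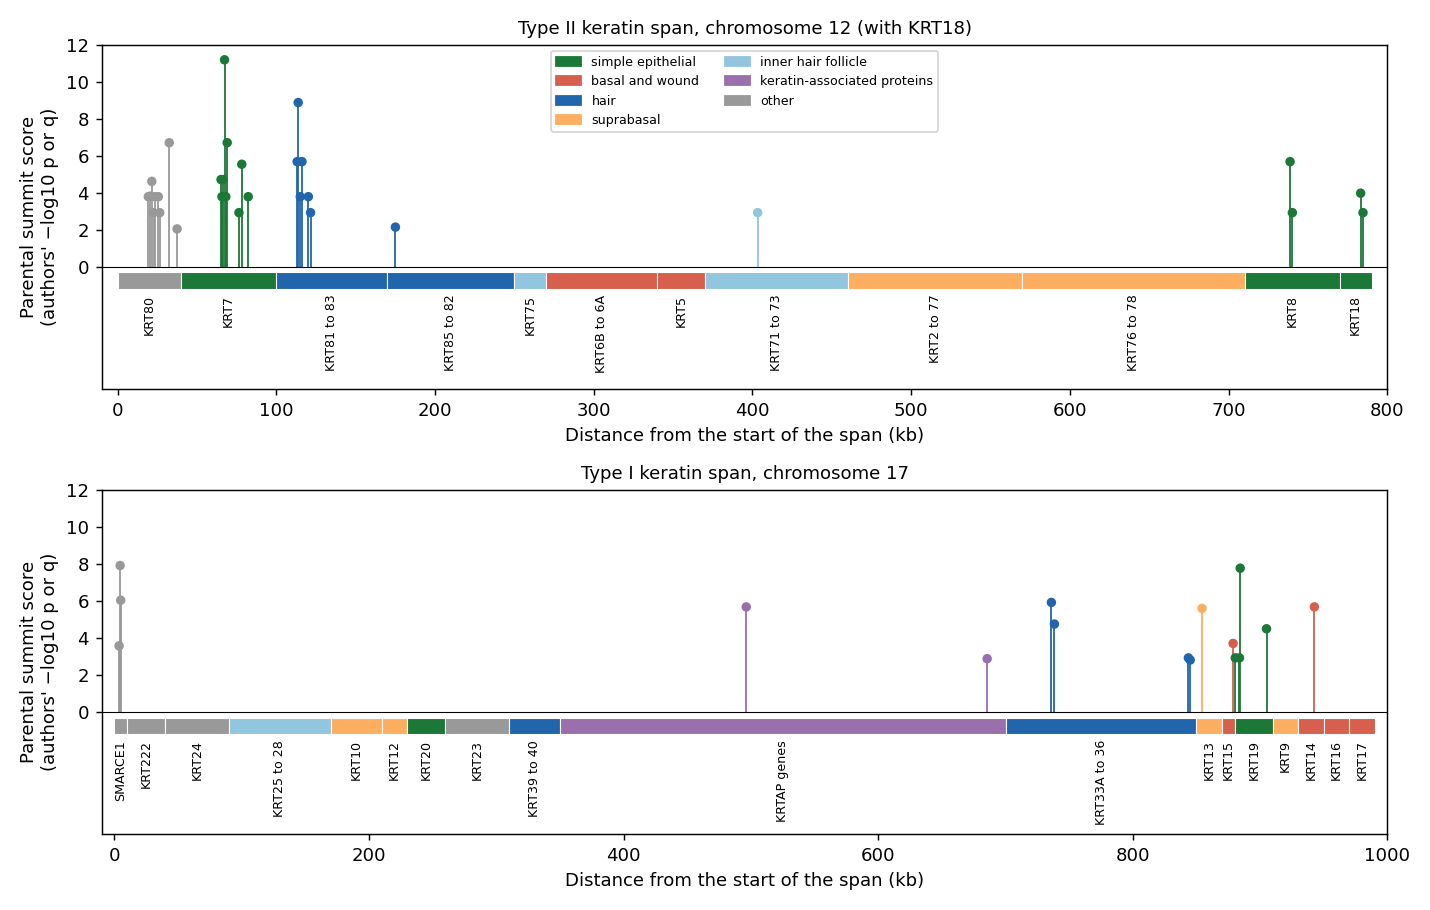
Score of each of the 46 parental summits (vertical axis, the authors' −log10 p or q) against distance from the start of its span in kb; coloured blocks are the gene windows by keratin class. Summits crowd at KRT80, KRT7 and KRT81 to KRT83. Most type I summits lie from KRT33A to KRT14. The last 290 kb held 37.9 per Mb, against 35.4 on chromosome 17 as a whole and 58.6 in the flank after the span. Long empty stretches lie between.

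Among the simple epithelial keratins, 4 of 5 windows held parental summits, against 14 of all 30 windows, which differ in width. KRT7, a keratin of glandular and ductal epithelia, had the most, with 9 summits in 17.1 kb and a median score of 4.71. Its highest, at position 52627382 of chromosome 12, scored 11.2, a score reached by 4.50% of parental summits and by no other keratin summit. It stood among 6 KRT7 summits between 65.2 and 69.1 kb, and the other 3 lay between 76.5 and 82.3 kb.

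KRT19, the smallest keratin and a luminal breast marker, had 4 summits. They scored 2.93, 2.93, 7.77 and 4.50, and the highest lay at 39684344 of chromosome 17. The last of them, at 905.0 kb, lay apart from the others, which fell between 880.5 and 884.3 kb. The first lay 490 bp inside the window edge shared with KRT15, and its place is therefore uncertain.

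KRT8 had 2 summits 1441 bp apart, at 53298677 (score 5.68) and 53300118 (score 2.93) of chromosome 12. KRT18, its filament partner, had 2 summits 1480 bp apart, at 53343130 (score 3.98) and 53344610 (score 2.93). Of these 4 summits 1, the first of KRT8, was in the highest scoring 25% of the parental list, a set that ties bring to 26.1% of it. In the RefSeq table KRT8 and KRT18 overlap, so these windows do not separate the genes fully. KRT20, a keratin of gut and urothelium, had 0 summits in 30 kb.

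The basal and wound keratins held 2 summits in 6 windows. The KRT14 window, for the basal partner of KRT5, had 1 at 39742630 of chromosome 17 with a score of 5.68. The KRT15 window had 1 at 39678774 with a score of 3.71, which lay 1226 bp from the edge of the KRT19 window. KRT5, the KRT6B, KRT6C and KRT6A window, KRT16 and KRT17 each held 0. KRT5 and KRT6 lie inside a stretch of 228.2 kb with no parental summit, from 175.0 to 403.3 kb. Stretches at least that long made up 5.86% of the distances between neighbouring parental summits. That is a share of distances, not of sequence, so it does not give how often a gene lies in such a stretch. Of all 100 kb tiles, assembly gaps included, 61.3% held no parental summit.

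The hair keratins held 11 summits in 4 windows. Of these, 6 lay in the KRT81, KRT86 and KRT83 window, within 8.42 kb, and the highest scored 8.87 at 52673792 of chromosome 12. Their other scores were 5.68, 3.79, 5.68, 3.79 and 2.93. KRT81 and KRT86 make hard hair keratins. The KRT85, KRT84 and KRT82 window beside them had a single summit, at 52735041, with a score of 2.14.

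The large type I hair window, KRT33A to KRT36 with 9 genes in 150 kb, held 4 summits in pairs 105.2 kb apart. The first pair, at 39536033 and 39538407 of chromosome 17, scored 5.92 and 4.75. The second, at 39643646 and 39645062, scored 2.93 and 2.81. KRT39 and KRT40 held 0. The KRTAP window, whose genes encode the matrix proteins of hair, held 2 summits in 350 kb, at 39296304 (score 5.68) and 39485568 (score 2.88).

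Suprabasal keratins, made above the basal layer as cells differentiate, were nearly empty. Of 6 windows only that of KRT13, a keratin of moist mucosa, held a summit, against 14 of all 30 windows. It lay at 39654368 of chromosome 17 with a score of 5.60. The windows of KRT2, KRT1 and KRT77, of KRT76 to KRT78, of KRT10, of KRT12 and of KRT9 held 0. The inner hair follicle keratins held 1 summit, in the KRT71 to KRT73 window at 52963264 of chromosome 12 (score 2.93), and 0 in the windows of KRT75 and of KRT25 to KRT28.

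Outside these classes, the KRT80 window held as many summits as the KRT7 window beside it, at 225 against 150 per Mb. KRT80, a keratin of many differentiating epithelia, had 9 summits within 18.1 kb with a median score of 3.79 and a highest of 6.70 at 52592553 of chromosome 12. The 3 SMARCE1 summits fell within 1274 bp and scored 3.57, 7.92 (at 38804479 of chromosome 17) and 6.04. Without them the type I span held 13. The windows of KRT222, KRT24 and KRT23 held 0. Together these windows held 12 summits in 180 kb, or 66.7 per Mb (34.4 to 116.5).

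By class, simple keratin windows held 17 summits in 200 kb, or 85 per Mb (49.5 to 136.1). Basal and wound windows held 2 in 170 kb, or 11.8 per Mb (1.42 to 42.5). Hair windows held 11 in 340 kb, or 32.4 per Mb (16.2 to 57.9). The ratio of simple to basal was 7.22 (1.72 to 64.5) and that of simple to hair 2.63 (1.16 to 6.21). Hair over basal was 2.75 with an interval of 0.6 to 25.5, which includes 1.

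These intervals treat summits as independent, although many lie in groups. The share of 10 kb bins with a summit was 8 of 20 (40%, 19.1 to 63.9) for simple windows. It was 2 of 17 (11.8%, 1.46 to 36.4) for basal and 5 of 34 (14.7%, 4.95 to 31.1) for hair windows, and the 3 intervals overlap. Over all bins of chromosomes 1 to 22 and X the share was 8.51%, inside the basal and hair intervals and below the simple one. With all inner window edges moved 10 kb to the right, the ratio of simple to basal fell to 2.95 (0.926 to 12.3) and that of simple to hair to 2.09 (0.896 to 4.94). With KRT5, KRT14 and KRT15 alone as basal, simple to basal was 2.55 (0.605 to 22.8). Without the fullest window of each class, which for simple is KRT7, simple to hair was 3.09 (0.890 to 11.99).

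Suprabasal windows held 1 summit in 350 kb, or 2.86 per Mb (0.0723 to 15.9), and inner hair follicle windows 1 in 190 kb, or 5.26 per Mb (0.133 to 29.3). The KRTAP window came to 5.71 per Mb (0.692 to 20.6). Set against the 15.1 per Mb of chromosomes 1 to 22 and X, simple windows were 5.62 times as dense (3.27 to 9.00). Hair windows were 2.14 times as dense (1.07 to 3.83), with a lower limit close to 1. The 15.1 per Mb counts assembly gaps, where no summit can lie, which raises these ratios. It is also lower than the surroundings of the clusters. The equal-width flanks of both spans together held 53.1 per Mb (45.8 to 61.2). That value lies inside the simple (49.5 to 136.1) and hair (16.2 to 57.9) intervals. Both spans together had 0.487 times the density of the flanks (0.345 to 0.675). The hair value rests on KRT81 to KRT83: without that window hair came to 18.5 per Mb (6.01 to 43.2). With edges moved 10 kb to the left it was 26.5 (12.1 to 50.2), and with the inner follicle keratins added 22.6 (11.7 to 39.6), and these 3 intervals include 15.1. The basal (0.778, 0.0942 to 2.81), suprabasal (0.189, 0.00478 to 1.05), inner follicle (0.348, 0.00881 to 1.94) and KRTAP (0.378, 0.0458 to 1.37) intervals all include 1.

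**Figure D3:**
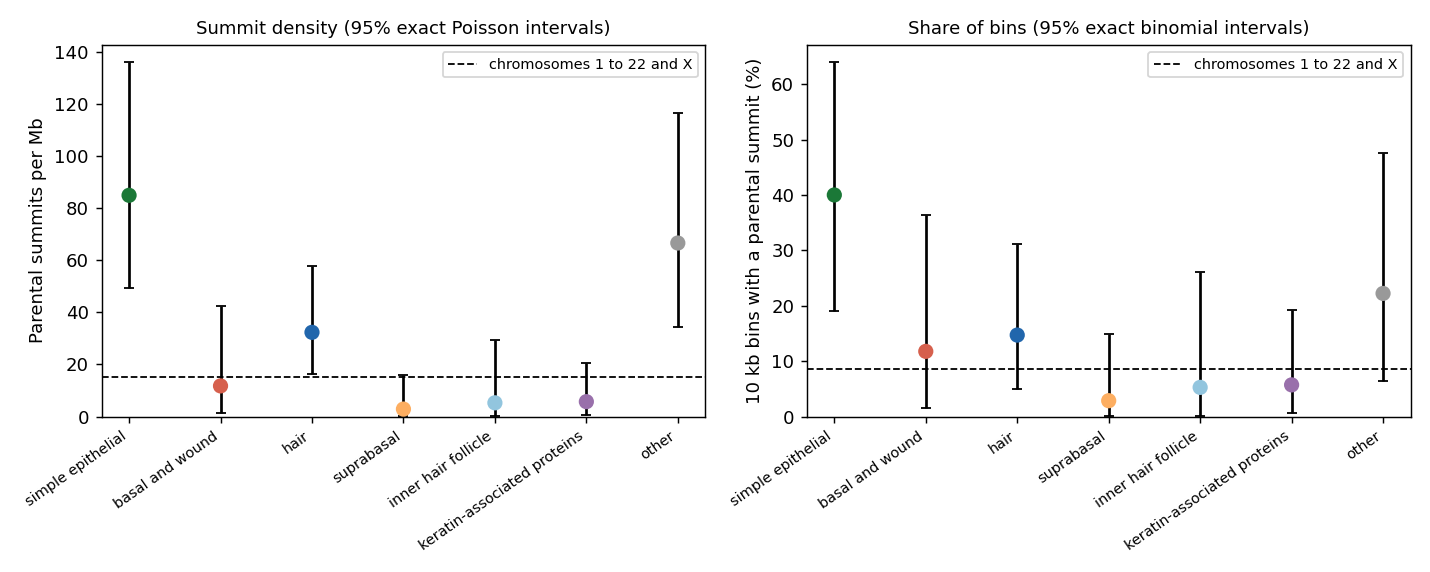
Parental summits per Mb (left, exact Poisson intervals) and percent of 10 kb bins with a summit (right, exact binomial intervals) by keratin class; dashed lines are chromosomes 1 to 22 and X. Simple keratin windows stand highest in both panels, at 85 per Mb and 40% of bins, and their bin interval overlaps those of the basal and hair windows.

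Part of the keratin summits lay in close groups. With steps of at most 10 kb they formed 15 groups. Of these, 3 held 6 to 9 summits (KRT80, KRT7, and KRT81 to KRT83), 6 held 2 to 4, and 6 were single summits. Within the 3 large groups the median step was 1176 bp for KRT80, 967 bp for KRT7 and 1328 bp for KRT81 to KRT83. Of the 44 steps between neighbouring keratin summits 22 (50%, 34.6 to 65.4) were under 2 kb, an interval that includes the 37.0% of the whole parental list.

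The scores of keratin summits were ordinary for their list. Their median was 3.79, as over all parental summits. In the highest scoring 25% (a score of 5.68 or more, 26.1% of the list with ties) stood 13 of 46 (28.3%, 16.0 to 43.5). Only the KRT7 summit reached 10 (2.17%), against 6.27% of all parental summits. Ties were common, with 10 keratin summits at 2.93 and 8 at 3.79, so ranks among the lower scores carry little information.

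No knockout summit lay in either span. An empty list region allows up to 0.779% of the 385 knockout summits (3 counts). The parental spans held 0.100% of their list, and the same share of 385 is 0.386 of a summit, so the loss of keratin summits could not be shown at this list length. Accordingly 0 of 46 keratin summits had a knockout summit within 200 bp or 1000 bp, against 0.636% of all parental summits within 200 bp. Of all 10 kb bins 0.116% held a knockout summit. The nearest knockout summits lay 545.4 kb after the type II span (53895396 of chromosome 12, score 5.37) and 924.6 kb after the type I span (40714604 of chromosome 17, score 5.96). Each had a parental summit nearby, at 28 bp and 138 bp.

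The start sites of the genes were described from the RefSeq promoter table (GRCh38.p14), which gives 250 bases before to 50 after a start. Of the 55 keratin genes 34 (61.8%) matched, and all classes but hair and inner hair follicle had fewer than 80% matched, so a comparison of classes is void. Among the unmatched were KRT7, KRT18, KRT19, KRT80, KRT81 and KRT86, where most summits lay. For KRT8 the table's start lies inside the gene, which has several. Nor did the start used lie at the gene's edge for the hair genes KRT84, KRT34 and KRT40 and the inner hair follicle genes KRT73 and KRT25. KRT85 and KRT40 had 2 and 4 entries, of which the first was used.

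Hair keratin promoters (14 of 17 genes matched) were poor in CpG. The observed over expected CpG ratio ran from 0 to 0.457 with a median of 0.135, against a median of 0.579 over 35116 promoters. None of the 14 reached 0.6, a level that 48.9% of all promoters reached. The 8 inner hair follicle promoters (of 9 genes) ran from 0.0595 to 0.319 with a median of 0.145. SMARCE1, whose window held 3 summits in 10 kb, stood at 1.10.

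TATAAA, searched on both strands, was found in 10 of the 14 hair and 6 of the 8 inner follicle promoters, against 11.5% of all promoters of that length. On the gene's own strand and 25 to 35 bases before the start, where a TATA box works, it was found in 7 and 4 of them, against 2.17%. GGGCGG, the core of the SP1 site, was in 4 of the 14 and 1 of the 8, against 45% of all promoters. TGANTCA, the AP-1 motif, was in 0 of both sets, against 7.71%, and sets this small cannot show a lack of a motif at that share. GGGCGG itself holds a CpG pair. A match describes letters only.

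**Figure D4:**
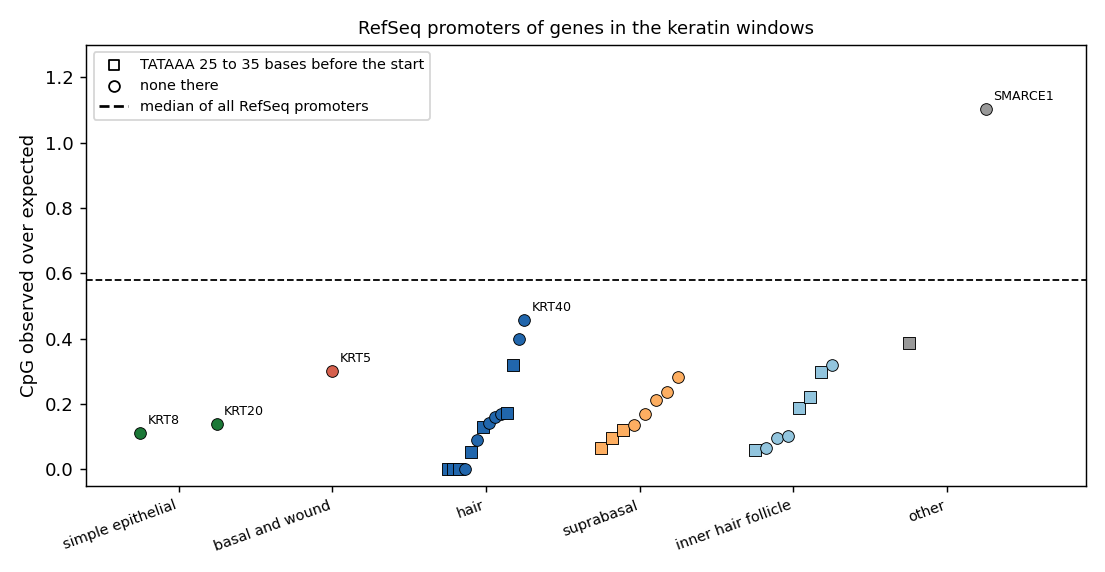
Observed over expected CpG (vertical axis) in RefSeq promoters of genes in the windows, by class; squares have TATAAA 25 to 35 bases before the start, and the dashed line is the median of 35116 promoters (0.579). All 34 matched keratin promoters, of 55 keratin genes, lie below the line and SMARCE1 lies above it at 1.10. Unmatched genes are not plotted, among them KRT7, KRT18, KRT19, KRT80, KRT81 and all basal genes but KRT5.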

How the data were processed

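ZMYND8 ChIP-seq of parental and knockout MDA-MB-231 mammospheres was analysed from 2 summit lists, 1 per library, grouped by the labelled genotype. Per the submitters' processing notes, the tools were MACS2 2.0.10, Bowtie2 2.2.3, Picard 1.127 and FastQC 0.11.2, and the build was hg19. Their roles, the control, the calling threshold and the depth are not stated there. The deposited score is the authors' −log10 p or q value, which of these is not stated, and was used within the parental list only. Unlike depth alone can make lists of unlike length.

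Positions are 1-based hg19. Window edges and keratin classes were written at 10 kb steps from general knowledge. Gene order matched a RefSeq table of GRCh38.p14 for all neighbours on chromosome 17 (28 of 28) and 25 of 26 on chromosome 12, where KRT86 starts before KRT81. The spans, windows and lists were chosen with earlier results of these data known. Every window is accounted for, and the highest summit of each window with several is given by position. Chromosome lengths came from GenomeInfoDb 1.38.1. Summits were shared within 200 bp. Counts carry exact Poisson, shares Clopper-Pearson and ratios conditional binomial intervals (95%). Counting was tested on simulated lists. Software was Python 3.11.15 with scipy 1.17.1, pandas 2.3.3, matplotlib 3.10.9 and numpy 2.4.6. Alternatives covered scores, merging, edges, classes, bins and sharing distance.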

Additional observations from a re-analysis of the deposited data

How the results depend on the processing

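No paired analysis was possible because there is a single library of either genotype. A density, share or ratio held if it fell within the reported 95% interval, and a count if it changed by less than 1.5 times. Of 57 alternatives 47 held and 10 moved; several that held could not move the value concerned, so these numbers do not measure robustness. With the highest scoring 25% of summits, the spans held 13 summits, simple windows 20 and hair windows 11.8 per Mb, and 5.06% of bins held a summit (2.82% of all bins). With scores of at least 5 these were 15 summits, 25 and 11.8 per Mb, and 6.18% (3.15%). Both follow from fewer summits. In these settings simple to basal was 3.4 (0.336 to 167.4) and 4.25 (0.476 to 201.0), and simple to hair 1.7 (0.317 to 9.13) and 2.12 (0.457 to 10.7), so every such interval included 1. Bins of 5 kb gave 7.58% (5.06 to 10.8), against 4.95% of all such bins. Bins of 20 kb gave 21.6% (13.5 to 31.6), against 14.3%. Both moved by construction. Only with 5 kb bins did the interval exclude the share over all bins. With edges moved 10 kb to the left, simple to basal was 16.3 (2.59 to 676.7) from 1 basal summit. Both class ratios stayed above 1 in all alternatives, but these reuse the same summits, and several of their intervals included 1. Unknown depth limits every count.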
